A study of Saccharomyces cerevisiae with 4 samples.

Results

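Described here are 47 genes of DNA repair and of the DNA damage checkpoint in budding yeast (Saccharomyces cerevisiae), chosen by systematic name from the 5500 reading frames of the deposited table. They were sorted by known function into base excision repair (7 genes), the photolyase PHR1 (1), nucleotide excision repair (9), recombination (9), end joining (3), mismatch repair (4), translesion and postreplication synthesis (5) and checkpoint signalling (9). Polyadenylated RNA of a strain labelled bre1 was set against RNA of a wild-type strain on 4 2-colour microarrays, with bre1 RNA in the Cy3 channel of arrays 1 and 3 and in the Cy5 channel of arrays 2 and 4. The labels give neither the kind of bre1 mutation nor the strain background, the growth conditions or the number of cultures behind the arrays. The p-values therefore reflect array-to-array spread, possibly of technical origin alone. Each value is a log2 ratio on 1 array, read as bre1 over wild type, so that a positive value means higher in bre1. That direction is likely, from the order of names in the labels, but not settled, and the log base was read as 2.

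Cells meet different kinds of DNA damage with different enzymes. Base excision repair removes single damaged bases with glycosylases and then cuts the bare backbone with an endonuclease, nucleotide excision repair cuts out a short stretch around a bulky lesion, and mismatch repair corrects errors left by the polymerase. Broken chromosomes are rejoined by recombination with an intact copy or by direct end joining, lesions that stop the replication fork are passed by translesion polymerases, and checkpoint kinases hold the cell cycle while repair proceeds. BRE1 encodes the ubiquitin ligase that modifies histone H2B together with Rad6, an enzyme that also acts in postreplication repair with other ligases.

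BRE1 itself had values on 2 arrays only, -1.65 on array 1 and -3.17 on array 3. Both are below 0, which is lower in bre1 in the direction read here. Because that direction is not settled, these values cannot check the strain label and the direction at once. Both arrays have bre1 in Cy3, and BRE1 had no value on the arrays with bre1 in Cy5. Over the 3840 frames with a value on every array, each pair of arrays correlated positively across genes, with r from 0.20 to 0.75, and no sign was changed. Pairs of opposite dye had r of 0.65, 0.24, 0.31 and 0.20, and pairs of the same dye 0.75 and 0.54. Across the 30 repair and checkpoint genes with complete values all pairs together gave r from 0.48 to 0.77, and without OGG1 from 0.09 to 0.71. These correlations are descriptions, since genes of 1 array share its labelling and normalization. RNA came from whole cell populations, so fewer cells expressing a gene and less RNA per cell cannot be told apart.

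Many of these genes could not be tested. Of the 47 genes, 30 (63.8%) had values on all 4 arrays, against 69.8% of all 5500 frames, 4 had values on 3 arrays, 4 on 2 arrays and 3 on 1 array. The 6 genes with no value on any array (12.8%, against 8.62% of all frames) were the checkpoint kinase genes MEC1 and TEL1, the checkpoint adaptor gene RAD9, the recombination genes RAD54 and RAD57, and YKU70 of end joining. Recombination was the most thinly covered pathway, with 2 of 9 genes complete, whereas all 4 mismatch repair genes described here were complete. Array 1 gave values for 30 of the 47 genes, and arrays 2, 3 and 4 for 37, 38 and 38. The 6 genes without a value had a median annotated length of 3313.5 bp and the 30 complete ones 1768.5 bp. Among all frames, 57.0% of those over 3000 bp had complete values, against 66.7% to 74.1% in the shorter length classes.

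**Figure D1:**
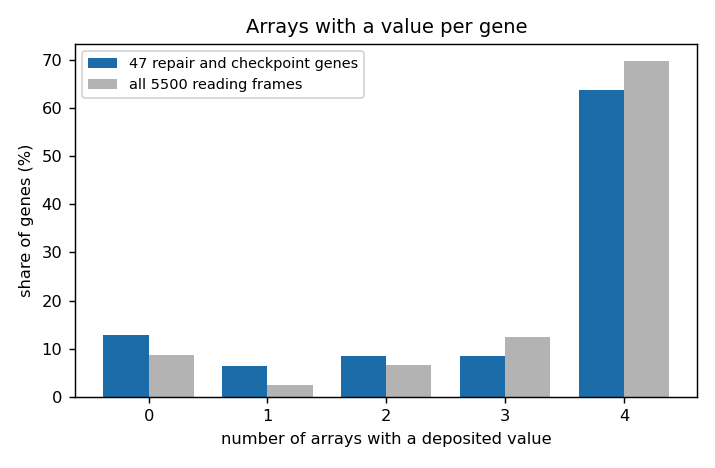
Share of genes in percent (vertical axis) by the number of arrays that gave a deposited value (horizontal axis), for the 47 repair and checkpoint genes (blue) and all 5500 reading frames (grey). The repair and checkpoint genes had complete values in 63.8% of cases and none in 12.8%, against 69.8% and 8.62% of all frames.

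Most repair and checkpoint transcripts had a mean ratio close to 0, and 2 of the 30 tested genes passed the threshold. The glycosylase gene OGG1 was higher in bre1, and the checkpoint clamp gene RAD17 was lower. The test was limma's moderated test of the mean log2 ratio against 0, with Benjamini-Hochberg adjustment over all 3840 genes and a threshold of 0.05. It called 10.7% of all tested genes (5.89% higher and 4.79% lower), so that 2 of 30 (6.67%) is no more than the background. At an unadjusted p under 0.05 the count was 7 of 30, or 23.3%, against 30.2% of all tested genes. The median of the 30 gene means was 0.01, with quartiles at -0.15 and 0.12, beside a median of 0.02 and quartiles at -0.24 and 0.28 over all tested genes. The mean lay within 0.25 of 0 in 18 of 30 genes (60.0%), against 48.5% of all tested genes.

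For the 28 genes that did not pass, the 95% interval of the mean log2 ratio reached between 0.32 and 0.45 to either side. In 17 of these 28 the interval lay wholly inside a 1.5-fold change in either direction, and in all 28 inside a 2-fold change. The 11 others had intervals that included changes above 1.5-fold.

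**Figure D2:**
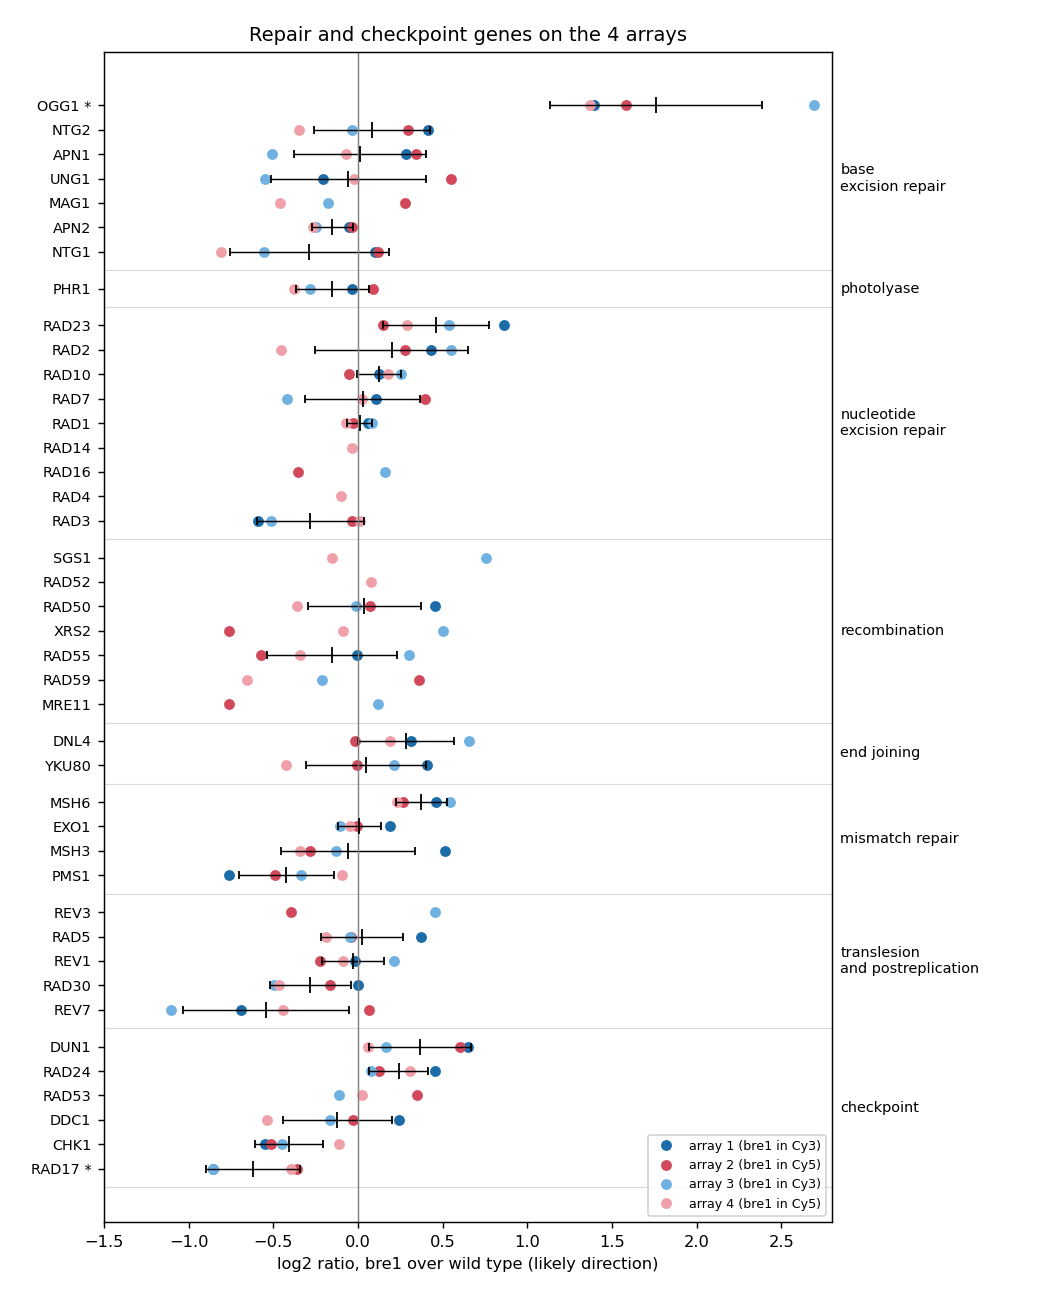
Log2 ratio of bre1 over wild type (horizontal axis, likely direction) of each of these repair and checkpoint genes with at least 1 value (rows, grouped by pathway). Dots are single arrays, coloured by array and dye orientation, and black ticks with bars are the mean and SD of genes with values on all 4 arrays. An asterisk marks the genes that passed the threshold, OGG1 and RAD17.

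In base excision repair OGG1 stood far above the rest of its pathway. OGG1 (YML060W) encodes the glycosylase that removes oxidised guanine. Its log2 ratio was 1.40, 1.58, 2.69 and 1.37 on arrays 1 to 4. All 4 arrays were above 0, and array 3 was the highest by a wide margin, while the other arrays lay within 0.21 of each other. The mean was 1.76 ± 0.63 (SD, n = 4), which is 3.39-fold higher in bre1 (adjusted p = 0.00711), and it ranked as number 6 from the top among the 3840 tested genes, or from the bottom if the ratio runs the other way. The call held without array 1, without array 3 (mean 1.45, adjusted p = 0.0293) and without array 4, and was lost without array 2 (mean 1.82, adjusted p = 0.0525), where limma called none of the 3840 genes (815 at an unadjusted p under 0.05).

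The 5 other tested base excision repair genes had means between -0.29 and 0.08, and none of them had an unadjusted p under 0.05 in limma. NTG1 and NTG2 encode a pair of glycosylases for oxidised pyrimidines. NTG1 had 0.10, 0.12, -0.55 and -0.81 on arrays 1 to 4 (mean -0.29 ± 0.47, SD, n = 4, adjusted p = 0.359). NTG2 had 0.41, 0.30, -0.04 and -0.35 (mean 0.08 ± 0.34, adjusted p = 0.788). Both were above 0 on arrays 1 and 2 and below 0 on arrays 3 and 4, and NTG1 lay below NTG2 on all 4 arrays, by 0.37 ± 0.15 on average (no test was made of this difference). The endonuclease genes that act after the glycosylases had means of 0.01 for APN1 and -0.15 for APN2, and UNG1, which removes uracil, had -0.06. MAG1, a glycosylase for alkylated bases, had no value on array 1 and stood at 0.28, -0.18 and -0.46 on arrays 2 to 4. OGG1 was above NTG1, NTG2 and APN1 on each of the 4 arrays, by means of 2.05, 1.68 and 1.75.

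The gene next to OGG1 did not pass the threshold. PIF1, a DNA helicase gene on the opposite strand, had 0.44, 0.16, 0.35 and 0.14 on arrays 1 to 4, a mean of 0.27 ± 0.15 (SD, n = 4, adjusted p = 0.240). NTE1, on the other side, had no value on any array. PHR1, which encodes the photolyase that reverses damage from ultraviolet light directly, had a mean of -0.15 ± 0.21 (SD, n = 4, adjusted p = 0.551).

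In nucleotide excision repair none of the 6 tested genes passed in limma. Against 30.2% of all tested genes, 1 of the 6 had an unadjusted p under 0.05. This was RAD23 (YEL037C), whose product helps to recognise lesions and also carries ubiquitinated proteins to the proteasome. RAD23 had 0.86, 0.15, 0.54 and 0.29 on arrays 1 to 4, above 0 on each, and a mean of 0.46 ± 0.31 (SD, n = 4, adjusted p = 0.104). In the fit with a dye term its adjusted p was 0.0397, and that fit called 23.4% of all tested genes. Rad1 and Rad10 form the nuclease that cuts on one side of the lesion, and their ratios lay between -0.07 and 0.25 on every array. RAD1 had 0.06, -0.03, 0.08 and -0.07, which is the smallest spread among the 30 tested genes (SD 0.07), and a mean of 0.01. RAD10 had a mean of 0.13 ± 0.13.

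RAD2, the nuclease gene for the other side of the lesion, had 0.43, 0.28, 0.55 and -0.46 on arrays 1 to 4 (mean 0.20 ± 0.45, adjusted p = 0.525). Array 4 alone was below 0. RAD3, a helicase gene of the transcription and repair factor TFIIH, had the lowest mean of the pathway, -0.28 ± 0.31 (SD, n = 4, adjusted p = 0.291). It was at -0.59 and -0.51 on arrays 1 and 3 and at -0.03 and 0.01 on arrays 2 and 4, so that it was low in 1 dye orientation only. Rad7 and Rad16 act together on DNA that is not being transcribed. RAD7 had a mean of 0.03, and RAD16 had -0.35 on array 2 and 0.16 on array 3. RAD4 and RAD14, which encode lesion recognition proteins, had a single value each, -0.10 and -0.04 on array 4.

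In recombination neither of the 2 tested genes passed in limma, with or without adjustment. RAD55, whose product assists strand exchange, had -0.0039, -0.57, 0.30 and -0.34 on arrays 1 to 4 (mean -0.15 ± 0.38, SD, n = 4, adjusted p = 0.604). RAD50, Mre11 and Xrs2 make up the complex that first binds and trims a broken end. RAD50 had 0.46, 0.07, -0.01 and -0.36 on arrays 1 to 4, with a mean of 0.04 (adjusted p = 0.897). MRE11 had -0.76 on array 2 and 0.12 on array 3, and XRS2 had -0.76, 0.50 and -0.09 on arrays 2, 3 and 4. Both were thus low on array 2 and above 0 on array 3, and neither had complete values; in the fit that admitted 3 values, XRS2 had a mean of -0.12 (adjusted p = 0.803). RAD59, a relative of RAD52 that anneals single strands, had 0.36, -0.21 and -0.65 on arrays 2 to 4. SGS1, a helicase gene that takes recombination intermediates apart, had 0.76 on array 3 and -0.15 on array 4, and RAD52, a central mediator gene of recombination, had 0.08 on array 4 alone.

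In end joining 2 of 3 genes were tested, and neither passed in limma, with or without adjustment. DNL4, which encodes the ligase that seals the ends, had 0.31, -0.02, 0.65 and 0.19 on arrays 1 to 4 (mean 0.28 ± 0.28, SD, n = 4, adjusted p = 0.269). YKU80, a subunit gene of the Ku ring that holds the ends, had a mean of 0.05 ± 0.36 (adjusted p = 0.873), with 0.41 and 0.21 on arrays 1 and 3 and -0.0032 and -0.42 on arrays 2 and 4. Both genes were higher on the arrays with bre1 in Cy3.

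In mismatch repair none of the 4 tested genes passed in limma, and 2 had an unadjusted p under 0.05 in opposite directions. The 4 genes are too few to set this count apart from the 30.2% of all tested genes. MSH6 (YDR097C) encodes a protein that recognises single mispaired bases. It had 0.46, 0.27, 0.54 and 0.23 on arrays 1 to 4, a mean of 0.37 ± 0.15 (SD, n = 4, adjusted p = 0.127), above 0 on each array. MSH3, which recognises larger loops, had 0.52, -0.28, -0.13 and -0.34, a mean of -0.06 ± 0.39, and was above 0 on array 1 alone. PMS1 (YNL082W), which acts after recognition, had -0.76, -0.49, -0.34 and -0.10, a mean of -0.42 ± 0.28 (SD, n = 4, adjusted p = 0.121). It was below 0 on every array, while EXO1, which digests the faulty strand, had a mean of 0.01 ± 0.13.

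Among translesion and postreplication genes none of the 4 tested passed in limma. Of the 4, 1 (REV7) had an unadjusted p under 0.05, against 30.2% of all tested genes. REV7 (YIL139C) encodes the accessory subunit of the translesion polymerase zeta. It had -0.69, 0.07, -1.11 and -0.44 on arrays 1 to 4, a mean of -0.54 ± 0.49 (SD, n = 4, adjusted p = 0.108), low on arrays 1 and 3 and close to 0 on array 2. In the limma fit with a dye term its adjusted p was 0.0352, and that fit called 23.4% of all tested genes. REV3, the catalytic subunit gene of the same polymerase, had -0.40 on array 2 and 0.46 on array 3, the opposite order of these arrays. REV1, a partner polymerase of zeta, had a mean of -0.03 ± 0.18, and RAD30, the gene of polymerase eta, had 0.0024, -0.17, -0.50 and -0.46 (mean -0.28 ± 0.24, adjusted p = 0.258). RAD5, which promotes error-free bypass by extending ubiquitin chains on the replication clamp, had a mean of 0.02 ± 0.24 (adjusted p = 0.930).

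Among checkpoint genes RAD17 was lower in bre1, and 4 of the 5 tested genes kept 1 sign on all 4 arrays, against 35.7% of all tested genes. Of these 4, RAD17 and CHK1 were below 0, and RAD24 and DUN1 were above 0. In limma 2 of the 5 (RAD17 and CHK1) had an unadjusted p under 0.05, against 30.2% of all tested genes. The 5 genes are too few to set either count apart from the share of all tested genes. RAD17 (YOR368W) encodes a subunit of the clamp that marks damaged DNA for the checkpoint kinases. It had -0.86, -0.36, -0.86 and -0.40 on arrays 1 to 4. Each array was below 0, and the values pair by dye, lower with bre1 in Cy3. The mean was -0.62 ± 0.28 (SD, n = 4), a 1.54-fold lower level in bre1 (adjusted p = 0.0442). Without array 1, 2 or 3 the adjusted p was 0.196, 0.120 and 0.126, and with genes of at least 3 values in the fit it was 0.0503, so this call rests on a narrow margin. The genes beside RAD17 did not pass, with means of 0.13 for SCP1 (adjusted p = 0.658) and 0.53 for the ribosomal protein gene RPS12 (adjusted p = 0.220).

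The genes that act with RAD17 had means on both sides of 0. DDC1, another subunit gene of the clamp, had 0.24, -0.03, -0.16 and -0.54 (mean -0.12 ± 0.32, adjusted p = 0.663). RAD24, whose product loads the clamp, had 0.45, 0.13, 0.07 and 0.31, a mean of 0.24 ± 0.17 (adjusted p = 0.309), and lay above RAD17 on all 4 arrays. CHK1 and DUN1 encode effector kinases downstream. CHK1 had -0.55, -0.51, -0.45 and -0.11, a mean of -0.41 ± 0.20 (SD, n = 4, adjusted p = 0.113). DUN1 had 0.65, 0.60, 0.16 and 0.06, a mean of 0.37 ± 0.30 (adjusted p = 0.172). DUN1 was above CHK1 on all 4 arrays, by 0.77 ± 0.48, without a test of the difference. RAD53, the central effector kinase gene, had 0.35, -0.11 and 0.02 on arrays 2 to 4.

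Set side by side, no pathway had a median far from that of all genes. The medians of the gene means were 0.17 for end joining (2 genes tested), 0.08 for nucleotide excision repair (6), -0.02 for base excision repair (6), -0.03 for mismatch repair (4), -0.06 for recombination (2), -0.12 for checkpoint genes (5) and -0.16 for translesion and postreplication genes (4). Within most pathways the genes spread to both sides of 0, with highest and lowest means 0.80 apart among mismatch repair genes and 0.99 apart among checkpoint genes. Of the 30 genes, 9 (30.0%) kept 1 sign across the 4 arrays, against 35.7% of all tested genes. Of these 9, 4 were checkpoint genes, 2 mismatch repair genes (MSH6 and PMS1), 2 base excision repair genes (OGG1 and APN2), and 1 belonged to nucleotide excision repair (RAD23).

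**Figure D3:**
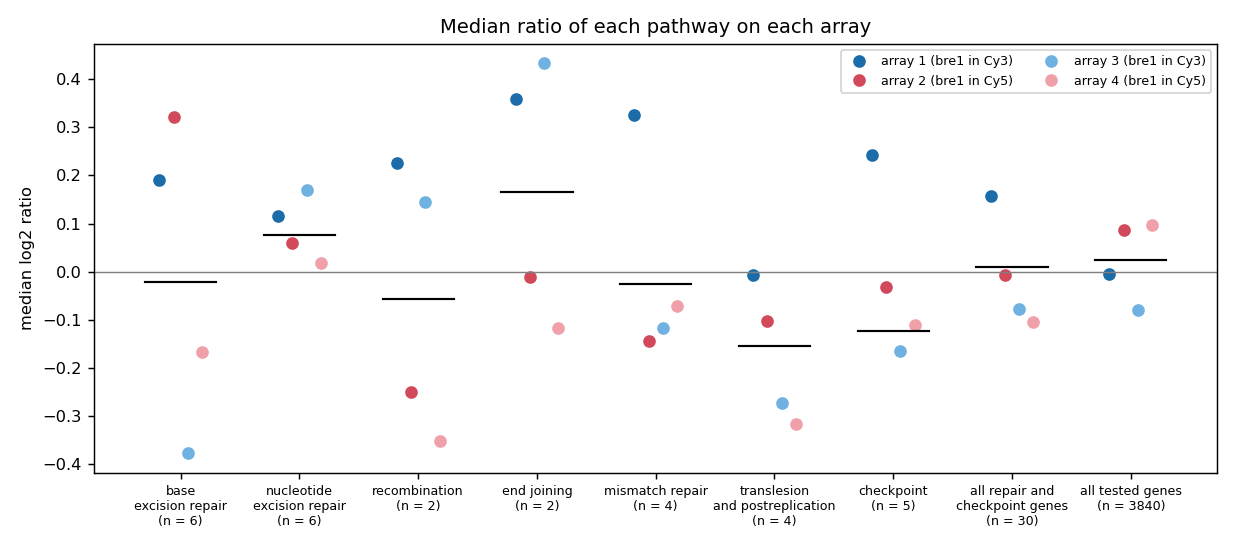
Median log2 ratio of the tested genes of each pathway (vertical axis) on each of the 4 arrays (dots, coloured by array) and of the gene means (black line), with the number of tested genes under each name. The base excision repair median was 0.19 and 0.32 on arrays 1 and 2 and -0.38 and -0.17 on arrays 3 and 4.

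The arrays did not give the same picture of these genes. The median over the 30 genes was 0.16, -0.01, -0.08 and -0.10 on arrays 1 to 4, beside -0.01, 0.09, -0.08 and 0.10 over all tested genes. On the mean of arrays 1 and 2, 21 of the 30 genes (70.0%) were higher than on the mean of arrays 3 and 4, against 49.1% of all tested genes. All 5 tested base excision repair genes other than OGG1 were among these 21, with a median difference of 0.55, and OGG1 went the other way. The labels do not say what separates arrays 1 and 2 from arrays 3 and 4, and its part in the results was not tested.

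A dye difference was present as well. The 30 genes had a median difference of 0.12 between the arrays with bre1 in Cy3 and those with bre1 in Cy5, and 20 of them (66.7%) were higher with Cy3, against a median of -0.14 and 38.4% for all tested genes. The mean had the same sign in both dye orientations for 16 of the 30 genes (53.3%), against 63.0% of all tested genes. OGG1 had means of 2.04 with bre1 in Cy3 and 1.48 with bre1 in Cy5, and RAD17 had -0.86 and -0.38. Both called genes thus kept their sign in either orientation. This follows from all 4 values of each lying on 1 side of 0, and is no separate check.

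**Figure D4:**
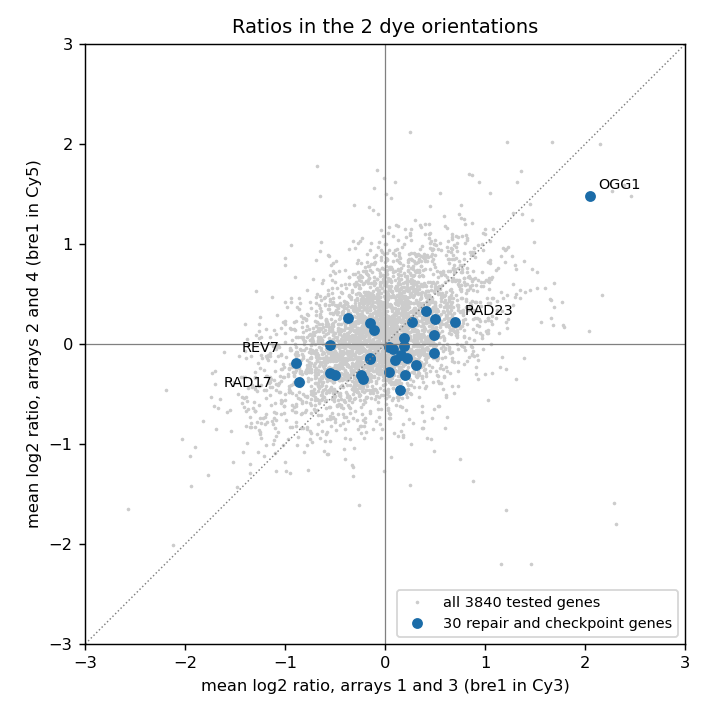
Mean log2 ratio on arrays 1 and 3, with bre1 in Cy3 (horizontal axis), against that on arrays 2 and 4, with bre1 in Cy5 (vertical axis), for the 30 repair and checkpoint genes (blue) and all 3840 tested genes (grey); the dotted line marks equal values. OGG1 is high in both orientations (2.04 and 1.48), and RAD17 is below 0 in both.

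Gene length went with the ratio over the whole table, with a Spearman rho of -0.26 over the 3821 tested genes with an annotated length, as a description. Over the 30 tested repair and checkpoint genes rho was 0.11. In the whole table the median ratio was 0.16 for frames up to 1000 bp and -0.04, -0.05 and -0.05 in the longer length classes. Only 2 of the 30 genes are up to 1000 bp long, so a departure of the 30 from the whole table cannot be told. Their lengths ran from 633 bp (RAD10) to 3939 bp (RAD50), and OGG1 and RAD17 are 1131 and 1206 bp long.

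Further genes of the same processes were looked up from a list outside these 47. Of 63 such genes 62 were on the array and 33 had complete values. Of these, 2 rose and none fell in limma (6 higher and 2 lower at an unadjusted p under 0.05), with a median of 0.07. The 2 calls are 6.06% of the list, against 10.7% of all tested genes, and the 8 unadjusted ones 24.2%, against 30.2%. The genes called were MMS2 and RAD6. MMS2, which encodes a partner of the conjugating enzyme Ubc13, had 1.27, 0.96, 1.13 and 0.92 on arrays 1 to 4, a mean of 1.07 ± 0.16 (SD, n = 4), or 2.10-fold higher in bre1 (adjusted p = 0.00826). RAD6, the ubiquitin-conjugating enzyme gene named above, had 0.77, 0.58, 0.52 and 0.88, a mean of 0.69 ± 0.16, or 1.61-fold higher (adjusted p = 0.0281). The MMS2 call was lost without array 2 (adjusted p = 0.0525), and that of RAD6 without array 1, 2 or 3 (adjusted p = 0.119, 0.106 and 0.0535). UBC13, named here after its value was seen, had a mean of 0.42 ± 0.59 (adjusted p = 0.237). Among the neighbouring steps, RAD5 stood near 0, and the remaining clamp subunit gene MEC3, also named after its value was seen, had a mean of 0.03 ± 0.19 (adjusted p = 0.918).

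Transcripts that DNA damage is known to induce showed no common direction. Of 16 listed genes, 15 were on the array and 9 had complete values, 5 with a mean above 0 and 4 below, with a median of 0.03. Of the 9, DUN1, RAD2, RAD7, RAD23 and PHR1 are among the 47 genes above and are counted again here. None of the 9 passed in limma, and RAD23 alone had an unadjusted p under 0.05, against 30.2% of all tested genes. RNR3, a ribonucleotide reductase gene widely used as a reporter of the damage response, had -0.44, -0.14, -0.16 and -0.65 on arrays 1 to 4, a mean of -0.35 ± 0.25 (SD, n = 4, adjusted p = 0.174). RNR3 had the lowest mean of the 9 and was below 0 on every array, whereas DUN1 and RAD23 of the same list were above 0 on every array. The reductase gene RNR4 had -0.45, 0.19, 0.02 and 0.71 on arrays 1 to 4, a mean of 0.12 ± 0.48 (limma adjusted p = 0.728). RNR2 had -0.37, -0.91 and -0.01 on arrays 2 to 4. These reductase genes were named after their values were seen. Of the repair genes known to peak at the start of S phase, 5 of 8 listed here had complete values, with a median of 0.01. None passed in limma, and 2 of the 5 had an unadjusted p under 0.05, against 30.2% of all tested genes. All 5 (DUN1, MSH6, PMS1, UNG1 and EXO1) are among the 47 genes above.

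Markers of cell cycle stage likewise held no call. Of 5 G1/S cyclin genes 3 had complete values and none passed in limma, with or without adjustment (median -0.29, from -0.32 for CLN2 to 0.08 for CLB5). Of 6 mitotic genes 3 had complete values and none passed, likewise with or without adjustment (median 0.18, from 0.10 for CLB2 to 0.28 for CDC5). The median of these 3 was -0.08 with bre1 in Cy3 and 0.39 with bre1 in Cy5, and 0 of the 3 kept their sign in both orientations. For the 3 cyclin genes the medians were -0.13 and -0.05, and all 3 kept their sign.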

How the data were processed

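The values are log2 ratios between the bre1 and wild-type channels of each array, as the authors deposited them. Base 2 was assumed, and all fold changes given here depend on it. The values lie between -4.80 and 2.82, a range that does not settle the base. The processing before deposit is not given in the sources used here. Without scanner intensities, which were not used here, dim spots were not filtered; precision is limited by the number of arrays. Centring within arrays would hide a change of all transcripts together. The 3840 frames with values on all 4 arrays were fitted in R 4.3.3 with limma 3.58.1 (intercept alone, eBayes, two-sided), with Benjamini-Hochberg adjustment over all of them; the fit was tested on simulated data. Errors are SDs over arrays. Names, lengths (introns included) and neighbours come from a RefSeq gene table of assembly R64, which matched 5470 of the 5500 frames and all 47 genes. The choice named 50 genes, of which 3 are not reported here; they stay in the fit over all genes. The genes, pathways, further lists and tests were chosen with earlier results of these data known. Named are called genes, the 2 highest and 2 lowest of each pathway, genes with incomplete values, neighbours of called genes, up to 4 called genes of each further list and BRE1; the few other values were added afterwards. Alternatives left out each array in turn, added a dye term, centred or quantile-normalized the arrays, used array weights, a robust variance prior or an unmoderated test, or admitted genes with 3 values.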

Additional observations from a re-analysis of the deposited data

Results flagged for a closer look

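The values of OGG1 on the 4 arrays stood out in 1 respect: array 3, at 2.69, lies far from the other arrays, at 1.37 to 1.58. The gap from array 3 to its nearest neighbour is 0.842 of the whole range, above Dixon's 95% critical value for 4 values. Of the 30 tested genes 1 went beyond that value, and chance alone flags about 1 in 20 such groups. Without array 3 the mean of OGG1 was 1.45 (limma adjusted p = 0.0293).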

How the results depend on the processing

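With 4 arrays and no spot intensities, small changes and near-background spots cannot be resolved. No paired analysis was possible because each array is already a ratio between bre1 and wild type and all arrays form 1 group. With arrays left out 1 at a time, 0 to 1 genes were called higher, against 1 with all arrays, and 0 to 1 lower, against 1. Without array 1, 2, 3 or 4 limma called 1.41%, 0%, 4.87% and 17.6% of all tested genes. Without array 2 none of the 30 was called, and 4 of them had an unadjusted p under 0.05, against 815 of all 3840 genes. The dye term gave 2 higher and 2 lower of the 30, and called 23.4% of all tested genes. The fit with 3 values gave 0 lower (RAD17 at an adjusted p of 0.0503), and called 9.01% of all its genes. In that fit 7 of 34, 4 of them lower, had an unadjusted p under 0.05, against 1267 of all 4527. The plain one-sample test gave 0 higher and 0 lower, and called 2 of all 3840 genes. In that test 4 of the 30 had an unadjusted p under 0.05, against 817 of all 3840. Over 11 alternatives OGG1 kept its call in 9 and RAD17 in 6; their adjusted p ranged from 0.00264 to 0.174 and 0.0146 to 0.196, and neither changed sign. MMS2 kept its call in 9 of these alternatives and RAD6 in 7, with adjusted p up to 0.130 and 0.162. With single arrays left out the pathway medians ran from -0.14 to 0.11 for base excision repair, 0.062 to 0.10 for nucleotide excision repair, -0.15 to 0.040 for recombination, 0.077 to 0.26 for end joining, -0.15 to 0.031 for mismatch repair, -0.23 to -0.11 for translesion and postreplication genes and -0.24 to 0.015 for checkpoint genes, so that 4 of the 7 crossed 0; the median of all 30 ran from -0.074 to 0.033. Genes near 0 changed sign: with centred arrays APN1 was -0.011, RAD1 -0.013, EXO1 -0.018 and RAD5 -0.0012, after quantile normalization APN1 was -0.026, EXO1 -0.0034 and RAD5 -0.0023, and with array weights MSH3 was 0.0054. With single arrays left out, 12 of the 30 gene means crossed 0: -0.029 to 0.22 for NTG2, -0.26 to 0.11 for UNG1, -0.097 to 0.19 for APN1, -0.096 to 0.18 for RAD7, -0.013 to 0.039 for RAD1, -0.10 to 0.17 for RAD50, -0.072 to 0.20 for YKU80, -0.25 to 0.036 for MSH3, -0.053 to 0.044 for EXO1, -0.11 to 0.037 for REV1, -0.092 to 0.094 for RAD5 and -0.24 to 0.015 for DDC1. The cause of these changes was not tested.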
